A study of Mus musculus with 10 samples.

Results

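Respiratory complex I, the NADH:ubiquinone oxidoreductase of the mitochondrial inner membrane, was followed here through the genes that encode its nuclear subunits and a set of its assembly factors. The genes were chosen by name, as the rows of the expression table called Nduf followed by the subunit letters a, b, c, s, v or ab, or by af for an assembly factor, and a number, with Ndufa4l2 and names ending in -ps left out. This gave 41 of 25965 features, of which 40 are described here. By role they were 6 core subunits, 9 accessory subunits of the matrix arm, 19 accessory subunits of the membrane arm, the acyl carrier subunit Ndufab1, Ndufa4 and the 4 assembly factors Ndufaf1 to Ndufaf4.

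RNA sequencing was carried out on 2 independent lines of male C57/Bl6 mouse embryonic stem cells (mESCs), each as 1 library per condition, which gave 10 libraries. Both lines had been derived under the Keniry2022 conditions, were sampled at p0, and were then split and passaged in 2i/LIF, a serum-free medium with inhibitors of MEK and GSK3 and the cytokine LIF, up to p10 and p20. The Keniry2022 arm, labelled New, was grown in suspension with more medium and at higher density and was passaged every 24 h. The Mulas2019 arm, labelled Old, was attached to gelatin and passaged every 48 h, so that p20 Keniry2022 and p10 Mulas2019 were reached after equal time. All groups shared the medium base and the antibiotic and antifungal supplements. The 5 groups of 2 libraries were p0, p10 Keniry2022, p20 Keniry2022, p10 Mulas2019 and p20 Mulas2019, and the comparison of the methods asks how the way of passaging changes gene expression in cells of the same origin.

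Complex I takes electrons from NADH, passes them along a chain of iron-sulphur clusters to ubiquinone and pumps protons across the inner membrane. It has the shape of an L. The matrix arm holds the flavin, the clusters and the ubiquinone site, and the membrane arm holds the proton pumps, whose core subunits are encoded by mitochondrial DNA. Accessory subunits surround this core and are needed for its stability. Assembly factors bind part-built modules and leave before the enzyme is complete. Cells in the 2i/LIF state use oxidative phosphorylation together with glycolysis.

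Library totals recovered from the table ran from 24054001 to 30236829 reads, of which 86.01 to 88.83% fell in the features. The markers of mESCs were found in every library, at 0.468 to 0.532% of feature reads. The number on a library did not always track its line: reads from 4 Y-linked genes were at or below 132 in replicate 1 and at or above 4578 in replicate 2 of every group except p20 Keniry2022, where replicate 1 had 6659 and replicate 2 had 48. Results that pair the lines are therefore given with the numbers as labelled and, where it matters, exchanged. The 2 p0 libraries also stood apart from each other for the complex I genes, as described after the method comparison. All 7 mitochondrially encoded complex I subunits were at 0 reads in all 10 libraries, as were the other mitochondrial features, and are not considered further.

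All 40 genes had a log2 RPKM above 0 in at least 50% of the libraries and were tested. RPKM is reads per kilobase of exon, scaled to a fixed number of mapped reads, and every value below is on the log2 scale. The mean level over the 10 libraries had a median of 5.49 over the 40 genes, against 3.18 over all tested features, and ran from 1.27 for Ndufab1 to 8.33 for Ndufa4. Read counts behind a value ran from 70 to 10760 per gene and library. The median recovered exon length was 1282 bases, against 3426 for all tested features. The genes lay on 16 chromosomes, with Ndufa1 and Ndufb11 on X. Ndufab1 has 6883 bases of combined exon in the annotation and 343 to 569 reads per library.

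Promoter sequence was available from RefSeq (GRCm38.p6) for 37 of the 40 genes, as 250 bases before to 50 after each start, and not for Ndufa2, Ndufb9 and Ndufs1. It is shown because most of the genes moved in the same direction between the methods, and because these short motifs belong to factors known to act at respiratory genes. Both strands were read for 5 motifs. ATGGCGG, the core of the YY1 motif, occurred in 8 of the 37 (21.6%), against 9.09% of the promoters of tested features. GCATGCG, from the NRF1 motif, occurred in 4 (10.8% against 7.30%). CCGGAAG, from the ETS motif bound by GABPA, occurred in 5 (13.5% against 19.9%), AAGGTCA of the oestrogen-related receptors in 3 (8.11% against 3.04%), and CCAAT of NFY in 13 (35.1% against 40.0%). These are matches of letters only, the YY1 core holds the letters of a start codon, and the factors' binding was not measured. The 8 windows with the YY1 core are given 5′ to 3′ on the gene's strand, with the match in capitals.
Ndufa1, chrX:37191382-37191408 (-): gaaagttgctCCGCCATttagagatcc
Ndufa5, chr6:24527530-24527556 (-): ggacgctgtcATGGCGGgcttgctgaa
Ndufa7, chr17:33824464-33824490 (+): cgtgtccatgATGGCGGcgatctggcg
Ndufa9, chr6:126849096-126849122 (-): gtgggagaagATGGCGGccgccgtccg
Ndufb5, chr3:32737072-32737098 (+): cggtgtagccATGGCGGccatgagcct
Ndufs4, chr13:114388045-114388066 (-): ctacaggaagATGGCGGcggtc
Ndufs6, chr13:73328433-73328456 (-): caccggcaagATGGCGGcggtgct
Ndufs7, chr10:80249466-80249492 (+): cgaggccaagATGGCGGcgctggcggg
The match stood in the forward sense in every window but that of Ndufa1, where its reverse complement is printed. Of these 8 genes, Ndufa7 and Ndufa9 were not called in the method comparison and the other 6 were higher under Keniry2022. Among all 40 genes 28 were called higher, and 25.9% of all tested features were. Whether the motif goes with the difference between the methods was not tested. Among the core subunits Ndufs8 carried several CCAAT boxes, and the 120 bases directly before its start in RefSeq, which lies upstream of the start in the gene annotation used below, are shown for that reason (chr19:3912775-3912894, minus strand, CCAAT in capitals).
Ndufs8: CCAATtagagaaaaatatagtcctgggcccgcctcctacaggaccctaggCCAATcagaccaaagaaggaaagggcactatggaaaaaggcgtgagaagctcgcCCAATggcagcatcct

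Complex I transcripts were more abundant under Keniry2022 than under Mulas2019 once p10 and p20 were pooled. The test was limma with Benjamini-Hochberg adjustment over 11654 features (4 libraries against 4, threshold 0.05). The 4 libraries of a method are p10 and p20 of the same 2 lines, and the fit had no term for line or passage. The standard errors, intervals and adjusted p values below take these libraries as independent. Of the 40 genes, 28 were called higher under Keniry2022, 0 were called lower and 12 were not called, and 35 differences were positive. The background was high: 25.9% of all tested features were called higher, 25.5% lower and 51.5% in either direction. The median difference was 0.21 over the 40 genes and -0.00 over all tested features. The called differences ran from 0.13 to 0.49. Quantile normalisation gave 18 higher, 4 lower and a median of 0.13, with 5361 of all 11654 features called in either direction. A model of all 10 libraries gave 2 calls, with 2225 of 11561 features called. With voom, limma's test on the recovered reads, 23 were higher and 1 lower, with 6044 features called. In 23 of the 40 genes the lowest Keniry2022 library exceeded the highest Mulas2019 library, an order seen in 23.1% of tested features, and the reverse order, seen in 23.4% of features, occurred in 0 of the 40.

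**Figure D1:**
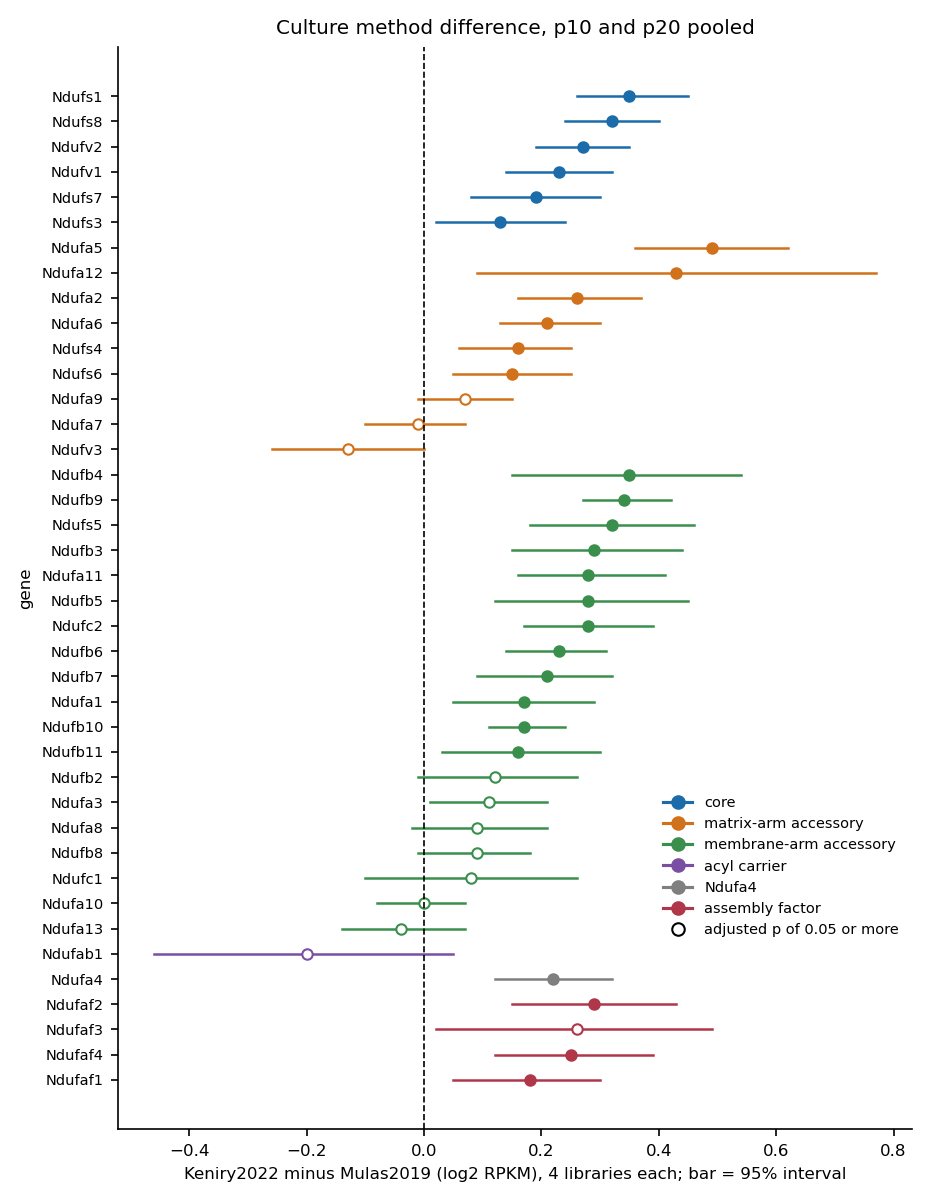
Difference between the culture methods for each complex I gene (x axis, Keniry2022 minus Mulas2019 in log2 RPKM, 4 libraries each; y axis, genes grouped by role), with bars for the 95% interval and open points for genes with an adjusted p of 0.05 or more. The 6 core subunits lie between 0.13 and 0.35, and the lowest point is Ndufab1 at -0.20.

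The same genes took 0.272 to 0.288% of feature reads in the 4 Keniry2022 libraries and 0.248 to 0.258% in the 4 Mulas2019 libraries, with no overlap. Shorter features as a whole leaned the same way. Over all features with under 1000 bases of exon the median difference was 0.13, and over those with 3000 bases or more it was -0.05. The 15 complex I genes in the shortest class had a median of 0.23, the 14 with 1000 to under 2000 bases 0.17, the 5 with 2000 to under 3000 bases 0.23 and the 6 longest 0.16. With the trend on exon length removed, 22 genes were called higher (28.2% of all features) and Ndufv3 was called lower (19.5%), with a median of 0.14. In these bulk samples, fewer cells of a type and less RNA per cell cannot be told apart.

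The nuclear-encoded core subunits form the catalytic part of the matrix arm. The 6 described here were all called higher under Keniry2022 (25.9% of all tested features were), with a median difference of 0.25. Ndufs1 (chr1:63143596-63176822), the largest subunit and a carrier of iron-sulphur clusters in the NADH-binding module, read 5.74 and 5.71 in the p10 Keniry2022 libraries (replicates 1 and 2) and 5.64 and 5.57 in those of p20. Under Mulas2019 the p10 values were 5.34 and 5.27, followed by 5.29 and 5.34 for p20. All Keniry2022 values stood above all Mulas2019 values, and the difference was 0.35 ± 0.0426 (SE, n = 4 and 4, 1.28-fold, adjusted p = 0.000166). Ndufv1 (chr19:4007497-4012806), which binds NADH and the flavin, read 5.77, 5.75, 5.62 and 5.69 under Keniry2022 and 5.49, 5.5, 5.5 and 5.43 under Mulas2019, in the same order of passage and replicate. The groups again did not overlap (0.23 ± 0.0409, 1.17-fold, adjusted p = 0.00134). Its partner Ndufv2 (chr17:66078795-66101559) read 6.56, 6.53, 6.53 and 6.52 against 6.30, 6.18, 6.26 and 6.32. That was a separation of 0.27 ± 0.0366 (1.2-fold, adjusted p = 0.000309) with no overlap.

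In the module that delivers electrons to ubiquinone, Ndufs8 (chr19:3908870-3912717), which carries clusters close to that site, read 6.10, 6.08, 6.14 and 6.08 under Keniry2022 and 5.85, 5.81, 5.74 and 5.73 under Mulas2019. Every Keniry2022 library was the higher, by 0.32 ± 0.0363 on average (1.25-fold, adjusted p = 0.000128). Ndufs7 (chr10:80249121-80256794), the carrier of the last cluster before ubiquinone, read 4.94, 5.0, 5.02 and 4.92 against 4.65, 4.85, 4.85 and 4.80. The ranges did not meet (0.19 ± 0.05, 1.14-fold, adjusted p = 0.0107). Ndufs3 (chr2:90894634-90904827), a scaffold of this module without a cluster, read 3.12, 3.12, 3.03 and 3.05 against 2.91, 2.92, 3.04 and 2.91. Here p20 Mulas2019 replicate 1 reached into the Keniry2022 range, the difference was 0.13 ± 0.0488 (1.10-fold, adjusted p = 0.0429), and the call was lost with the replicate number as a block, as labelled or exchanged. It was also lost in 6 of the 8 fits without 1 library, all but those without replicate 1 of p20 Keniry2022 or of p20 Mulas2019. Ndufs3 shares 4% of its exon bases with Kbtbd4 on the opposite strand.

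**Figure D2:**
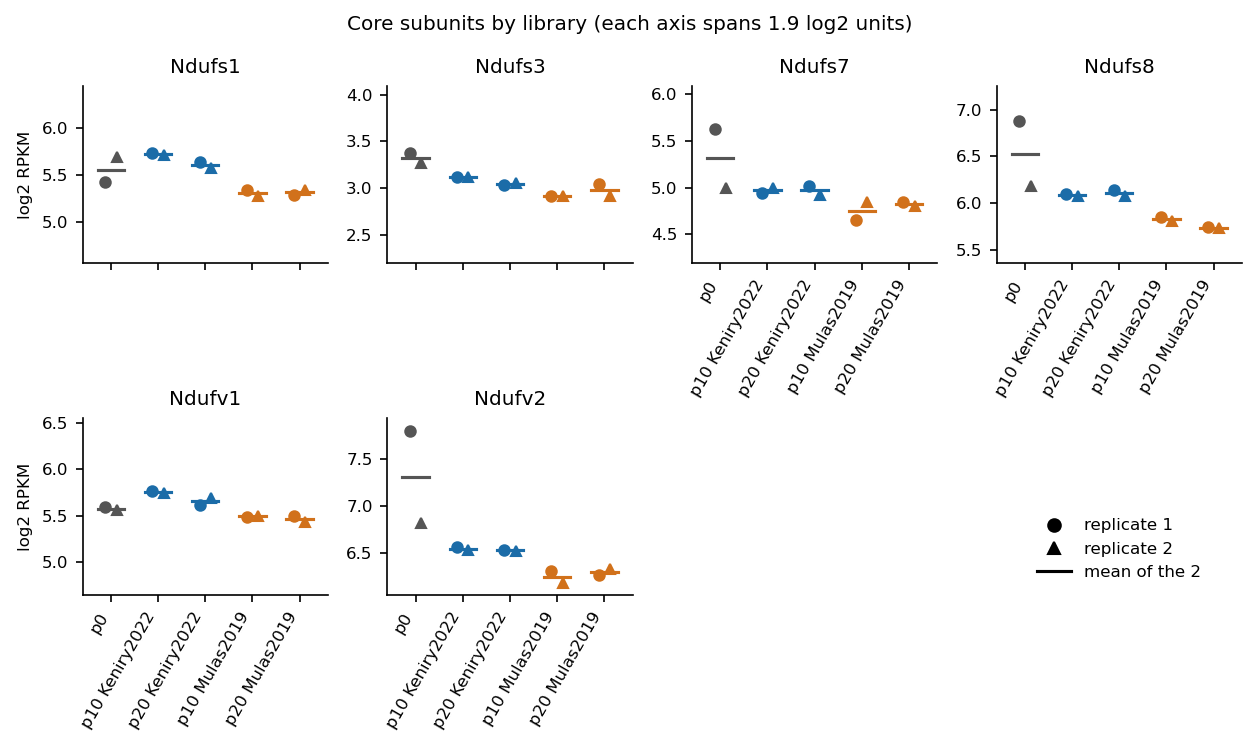
Level of 6 nuclear-encoded core subunits by library (y axis, log2 RPKM; x axis, group), with circles for replicate 1, triangles for replicate 2 and a line at their mean. Ndufs1 and Ndufv1 are lower in p0 than in p10 Keniry2022, whereas Ndufs8 and Ndufv2 are highest in p0 replicate 1.

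Among the 9 accessory subunits of the matrix arm, 6 were called higher under Keniry2022 (25.9% of all tested features were). The other 3 were not called, and the median was 0.16. The largest difference of all 40 genes was that of Ndufa5 (chr6:24518666-24528013), a subunit of the ubiquinone module. It read 5.22, 5.14, 5.36 and 5.17 under Keniry2022 and 4.83, 4.63, 4.68 and 4.79 under Mulas2019. No library crossed between the groups (0.49 ± 0.0602, 1.40-fold, adjusted p = 0.000181). Ndufa12 (chr10:94198955-94221443), a late-added subunit of the NADH-binding module, read 3.77, 3.65, 3.87 and 3.81 against 3.57, 3.44, 2.78 and 3.58. The low value belonged to p20 Mulas2019 replicate 1, the difference was 0.43 ± 0.154 (1.35-fold, adjusted p = 0.0386), and the call was lost in 5 of the 8 fits that left out a library, p10 Keniry2022 replicate 1 or 2, p20 Keniry2022 replicate 1 or 2 or p10 Mulas2019 replicate 2.

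Ndufa2 (chr18:36742332-36744557), a subunit with a thioredoxin-like fold, read 6.80, 6.64, 6.69 and 6.59 under Keniry2022 and 6.42, 6.45, 6.44 and 6.34 under Mulas2019. The groups were apart (0.26 ± 0.0479, 1.2-fold, adjusted p = 0.00134), and 11.5% of its exon bases are shared with Tmco6 on the opposite strand. Ndufa6 (chr15:82350139-82354291), which holds an acyl carrier protein to the matrix arm, read 7.32, 7.25, 7.27 and 7.18 against 7.04, 7.08, 6.99 and 7.06. It too showed no overlap (0.21 ± 0.0385, 1.16-fold, adjusted p = 0.00131). Of the others, Ndufs4 and Ndufs6 were called at 0.16 and 0.15. Both calls were lost with quantile normalisation, with the exon length correction, with the length and GC correction chosen after seeing the data (Ndufs4 at -0.03, adjusted p = 0.598, and Ndufs6 at 0.04, adjusted p = 0.404) and with the model of all 10 libraries. The Ndufs6 call was also lost with voom, limma's test on the recovered reads. Ndufa9 (0.07), Ndufa7 (-0.01) and Ndufv3 (-0.13, adjusted p = 0.0867) were not called. Ndufv3 was called lower in 6 of 20 alternatives, over which its difference ran from -0.22 to -0.09.

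Among the 19 accessory subunits of the membrane arm, 12 were called higher (25.9% of all tested features were) and 7 were not called, with a median of 0.17. Ndufb4 (chr16:37647170-37654453) had the largest difference in this arm and the fewest reads of all the genes. It read 1.74, 1.86, 1.93 and 1.74 under Keniry2022 and 1.30, 1.39, 1.6 and 1.59 under Mulas2019. The groups did not overlap (0.35 ± 0.087, 1.27-fold, adjusted p = 0.00768). Ndufb9 (chr15:58933810-58939489), which holds an acyl carrier protein to the membrane arm, read 7.02, 6.98, 6.92 and 6.93 against 6.62, 6.62, 6.57 and 6.66. Its difference of 0.34 ± 0.0352 (1.27-fold, adjusted p = 8.39e-05) exceeded the spread within either method several times over.

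Ndufs5 (chr4:123712710-123718202), on the intermembrane-space face of this arm, read 3.91, 4.04, 3.99 and 4.01 under Keniry2022 and 3.86, 3.61, 3.59 and 3.62 under Mulas2019. The highest Mulas2019 value, in p10 replicate 1, stayed under the lowest Keniry2022 value (0.32 ± 0.0632, 1.25-fold, adjusted p = 0.00229). Ndufb3 (chr1:58586384-58595964) read 5.89, 5.80, 5.86 and 5.71 against 5.60, 5.40, 5.43 and 5.65, again apart (0.29 ± 0.0638, 1.23-fold, adjusted p = 0.00362). Ndufa11, Ndufb5 and Ndufc2 were each called at 0.28, Ndufb6 at 0.23, Ndufb7 at 0.21 and Ndufb10 at 0.17. Ndufb5 shares 12.3% of its exon bases with Mrpl47 on the opposite strand.

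Both X-linked genes were among the smaller called differences of this arm. Ndufa1 (chrX:37187588-37191163), a small subunit needed early in assembly of the membrane arm, read 6.12, 5.97, 6.02 and 5.83 under Keniry2022 and 5.81, 5.83, 5.79 and 5.85 under Mulas2019. The lowest Keniry2022 library overlapped the Mulas2019 range (0.17 ± 0.0538, 1.12-fold, adjusted p = 0.0255), and the call was lost without either p10 Keniry2022 library, p20 Keniry2022 replicate 1 or p20 Mulas2019 replicate 1. Ndufb11 (chrX:20615326-20617619) read 5.85, 5.68, 5.82 and 5.75 against 5.52, 5.53, 5.61 and 5.79. Here p20 Mulas2019 replicate 2 reached into the Keniry2022 range (0.16 ± 0.0618, 1.12-fold, adjusted p = 0.0469). The call was lost with the replicate number as a block, as labelled or exchanged. It was also lost in the fits without 1 library other than p10 Keniry2022 replicate 2 or p20 Mulas2019 replicate 2. Ndufb11 shares 12.9% of its exon bases with Rbm10 on the opposite strand. The 7 genes of this arm that were not called ran from -0.04 for Ndufa13 to 0.12 for Ndufb2, with Ndufa10 at -0.00. The 95% interval of Ndufa10, -0.08 to 0.07, and that of Ndufa13, -0.14 to 0.07, lay below the median of the 40 genes. Exons are shared on the opposite strand with Tssk6 for Ndufa13 (30% of bases) and with Gm16272 and Braf for Ndufb2 (2.8%), and on the same strand with Gm20538 for Ndufb8 (4.3%).

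Ndufab1 (chr7:122085403-122101886), the mitochondrial acyl carrier protein that sits in both arms and also serves fatty acid synthesis, was the lowest of the 40. It read 1.10, 1.25, 1.11 and 1.06 under Keniry2022 and 1.04, 1.25, 1.58 and 1.48 under Mulas2019. The p10 values overlapped fully and the p20 Mulas2019 libraries stood above the other 6, and the pooled difference was not called (-0.20 ± 0.116, adjusted p = 0.164). It was called lower in 1 of 19 alternatives, over which the difference ran from -0.30 to -0.06. Ndufa4 (chr6:11900373-11907446), first described in complex I and now placed in complex IV, read 8.26, 8.22, 8.36 and 8.18 against 8.04, 7.98, 8.01 and 8.12. It was called higher under Keniry2022 (0.22 ± 0.0455, 1.16-fold, adjusted p = 0.00297) with no overlap. The call was lost with quantile normalisation (0.06), with the model of all 10 libraries and with the length and GC correction (0.00, adjusted p = 0.939).

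The assembly factors moved in the same direction as most subunits, with 3 of 4 called higher (25.9% of all tested features were) and a median of 0.26. Ndufaf1 (chr2:119655446-119662827), of the complex that builds the membrane arm, read 4.03, 4.07, 4.04 and 4.05 under Keniry2022 and 4.01, 3.82, 3.75 and 3.91 under Mulas2019 (0.18 ± 0.0548, adjusted p = 0.0213). Ndufaf2 (chr13:108052590-108158625), a relative of Ndufa12 that acts late in assembly, read 5.08, 5.03, 5.10 and 4.92 against 4.86, 4.84, 4.65 and 4.62 (0.29 ± 0.0643, adjusted p = 0.00411). Neither gene overlapped between the methods, and the call for Ndufaf1 was lost without p10 Keniry2022 replicate 2, p10 Mulas2019 replicate 2 or p20 Mulas2019 replicate 1. Ndufaf3 (chr9:108565866-108567342) and Ndufaf4 (chr4:24898083-24905001) act together on the early ubiquinone module. Ndufaf4 read 3.03, 3.08, 3.14 and 3.20 against 2.78, 2.77, 2.95 and 2.94 and was called (0.25 ± 0.0612, adjusted p = 0.00622). Ndufaf3 read 3.61, 3.71, 3.53 and 3.46 against 2.97, 3.42, 3.37 and 3.51 and was not (0.26 ± 0.107, adjusted p = 0.0666), with overlap at p20.

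A separate list of 9 complex I assembly factors with other names gave 6 called higher, 0 lower and a median of 0.18. Those called were Tmem126b (0.32, adjusted p = 0.0149), Acad9 (0.26, adjusted p = 0.00316), Atp5sl (0.23, adjusted p = 0.00231), Tmem70 (0.21, adjusted p = 0.00903), Aifm1 (0.18, adjusted p = 0.00264) and Nubpl (0.18, adjusted p = 0.0408). Acad9, Tmem126b and Ecsit work with Ndufaf1 in the membrane-arm assembly complex, and Nubpl delivers iron-sulphur clusters. Ecsit (0.08), Foxred1 (0.07) and Tmem186 (-0.05) were not called. The nuclear-encoded subunits of complexes II to V gave 30 higher, 0 lower and 11 not called of 41 tested. Their median was 0.19, close to that of complex I. The background for both lists was 25.9% of all tested features called higher and 25.5% lower.

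The cell-type markers were read beside these differences. Of the 8 mESC markers, 3 were called higher under Keniry2022, with differences of 0.40 for Pou5f1, 0.30 for Zfp42 and 0.18 for Nanog (adjusted p = 0.000192, 0.000188 and 0.0162). Klf4 was called lower (-0.40, adjusted p = 0.00365) and the other 4 were not called. Of all tested features, 25.9% were called higher and 25.5% lower. Of 6 trophectoderm markers, 2 were tested and both were lower under Keniry2022, Krt18 by -1.13 (adjusted p = 0.000381) and Tfap2c, which mESCs also express, by -0.33 (adjusted p = 0.0202). Together the 6 summed to 86.5 to 106 CPM of feature reads under Keniry2022 and 108 to 140 under Mulas2019. Most of this sum was Tfap2c, with 1834 to 3370 reads per library, against 29 to 84 for Krt18. Of the defining markers, Elf5 and Hand1 had 0 to 8 reads in any library and Cdx2 had 2 to 30. The 6 primitive endoderm markers summed to 7.59 to 11.2 CPM over all libraries. The 6 fibroblast or feeder markers summed to 33 to 81 reads, with Postn and Dcn at 0 throughout. The part of these cell types in the result was not tested.

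Within passages, with all 10 libraries in a single fit of 5 groups, few genes passed. At p10 the median difference was 0.22 and 37 of 40 were positive, and 1 gene, Ndufs1, was called (0.42, adjusted p = 0.0435), against 8.53% of all features, with 5 genes at an unadjusted p under 0.05 (27.0% of all features). The call was lost with the replicate number as a block, as labelled or exchanged, with quantile normalisation (adjusted p = 0.133), where Ndufv3 was called lower (-0.37, adjusted p = 0.0469), and in each of the 8 fits without 1 of the p10 or p20 libraries, where 0 genes were called. At p20 the median was 0.18, 37 were positive and 0 were called by limma, against 2.15% of all features, with 5 at an unadjusted p under 0.05 (19.4% of all features) and 0 called by voom. For the cultures matched in days, p20 Keniry2022 against p10 Mulas2019, the median was 0.20 and 0 were called against 6.43%, with 2 at an unadjusted p under 0.05 (23.5% of all features) and 0 by voom. That fit takes its spread from every group, and the p0 pair carries a far larger spread than the rest. With p0 replicate 1 left out, 26 were called higher and Ndufv3 lower at p10 (24.9% and 23.0% of all features). At p20, 18 were higher and Ndufab1 lower (18.6% and 17.6%), and 23 were higher in the cultures matched in days (22.8%). Leaving out p0 replicate 2 instead gave the same counts, which is no second check. Either way p0 keeps 1 library, which adds nothing to the spread. Between passages, 0 of the 40 were called for p20 against p10 under either method or for the difference of these effects, by limma or voom. All features likewise gave 0.0% called by limma. At an unadjusted p under 0.05 the count was 0 of the 40 in each, against 2.5% of all features under Keniry2022, 6.68% under Mulas2019 and 3.5% for the difference.

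The p0 libraries differed more from each other in complex I genes than any later pair. The median absolute difference between the 2 libraries of a group was 0.699 at p0 and 0.0469 to 0.0759 in the other 4 groups. Replicate 1 was above replicate 2 in 39 of 40 genes (51.9% of all tested features), and by 0.5 or more in 31 (16.8%). It was the highest of the 10 libraries in 38 genes (35.3%). The median of replicate 1 minus replicate 2 was 0.7 over the 40 genes and 0.02 over all tested features. Complex I genes took 0.51% of feature reads in the first p0 library and 0.306% in the second. The 2 libraries come from different lines, and the first had 132 Y-linked reads and the second 8140. The part of the line or of its Y chromosome in the gap was not tested.

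Single genes show the range of this gap. Ndufc2 read 7.84 at p0 in replicate 1 but 6.45 in replicate 2, and 5.96 to 6.4 in the 8 later libraries. Ndufb4 read 3.33 and 2.07, Ndufa4 9.65 and 8.44, and Ndufv2 7.81 and 6.82. In each of these, replicate 2 lay closer to the later libraries than to replicate 1. At the other end, Ndufv1 read 5.59 and 5.56, Ndufa9 6.45 and 6.40, and Ndufs1 was the single gene with replicate 1 lower, at 5.42 against 5.69. Short features again leaned this way: features under 1000 bases of exon had a median gap of 0.56, and those of 3000 bases or more had -0.20. The complex I genes had a median gap of 0.82 in the shortest class and 0.53 in the longest, and the part of exon length in the gap was not tested beyond these classes.

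**Figure D3:**
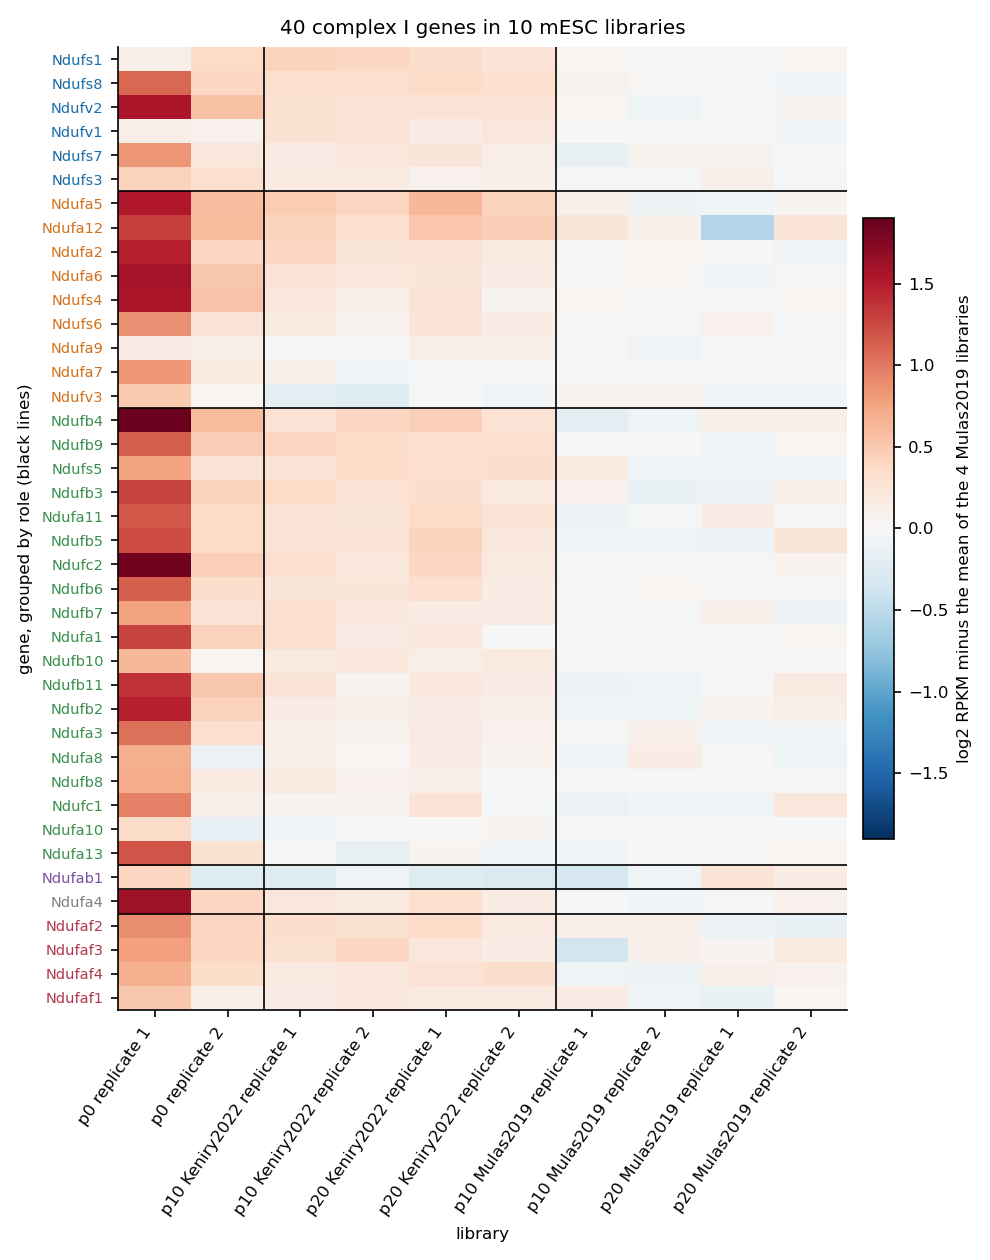
Heat map of the 40 complex I genes (rows, grouped by role with black lines) in the 10 libraries (columns), coloured by log2 RPKM minus the gene's mean over the 4 Mulas2019 libraries. The column of p0 replicate 1 is the reddest, with Ndufb4 and Ndufc2 darkest, and most Keniry2022 cells are pale red.

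The comparisons with p0 share its libraries, so they are given side by side. Mulas2019 cultures were lower than p0 in 26 of 40 genes at p10 (17.3% of all features called lower, median -0.66) and in 20 at p20 (14.6%, median -0.72). Keniry2022 cultures had 0 genes called by limma at either passage (0.199% of all features called at each), with 20 and 18 at an unadjusted p under 0.05 (2860 and 3237 of the 11561 features), 0 called by voom at either passage, and medians of -0.49 and -0.44. The Mulas2019 counts were not stable to the loss of a library. They fell far without any 1 of the p10 or p20 libraries, and the counts over all features fell too. The fall was largest for a library of the group itself, and each such fit leaves 1 library in a group. The median over the 40 genes was then -0.68 to -0.59 at p10 and -0.72 to -0.64 at p20. The genes that fell most in p10 Mulas2019 were Ndufb4 (-1.35 ± 0.336, adjusted p = 0.0251), Ndufc2 (-1.16 ± 0.365, adjusted p = 0.0452) and Ndufv2 (-1.07 ± 0.263, adjusted p = 0.0243). At p20 Ndufb4 (-1.11, adjusted p = 0.0444) and Ndufa12 (-1.11, adjusted p = 0.0287) were called and Ndufc2 (-1.13, adjusted p = 0.0505) was not. In Keniry2022 cultures the same measure was -0.90 for Ndufb4, -0.89 for Ndufc2 and -0.88 for Ndufs4 at p10, and -0.90 for Ndufs4, -0.87 for Ndufa6 and -0.87 for Ndufb4 at p20, none of them called. A call against p0 in 1 arm and not in the other is no test of the arms against each other, which is the method comparison above.

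These values depend on which p0 library is used, and each such comparison then rests on 1 p0 library that is assumed to vary as the remaining groups do. With p0 replicate 2 as the sole reference, the median was -0.12 in p10 Keniry2022 and -0.11 in p20 Keniry2022, with 5 genes called lower at p10 (Ndufa13, Ndufa6, Ndufs4, Ndufv2 and Ndufv3) and 4 at p20 (Ndufa6, Ndufb2, Ndufs4 and Ndufv2), where 2.82% and 2.39% of all features were called lower. Against the same library, Mulas2019 had a median of -0.35 with 26 called lower at p10 (20.6% of all features), and of -0.33 with 26 lower at p20 (18.7%). Ndufa10 was called higher at both passages and Ndufab1 at p20, where 19.8% of features at p10 and 18.8% at p20 were called higher. Against p0 replicate 1 alone, all arms were far below it, with 38 and 37 genes called lower under Keniry2022 at p10 and p20 (32.1% and 33.0% of all features) and 38 and 37 under Mulas2019 (35.8% and 34.0%). Ndufs1 went the other way under Keniry2022 (0.31 at p10 and 0.18 at p20, both called higher), and Ndufv1 did so at p10 (0.17), where 32.2% of all features at p10 and 33.4% at p20 were called higher. Both p0 libraries lay above all 4 Mulas2019 libraries in 34 genes (26.7% of all tested features) and above all 4 Keniry2022 libraries in 24 (19.3%).

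**Figure D4:**
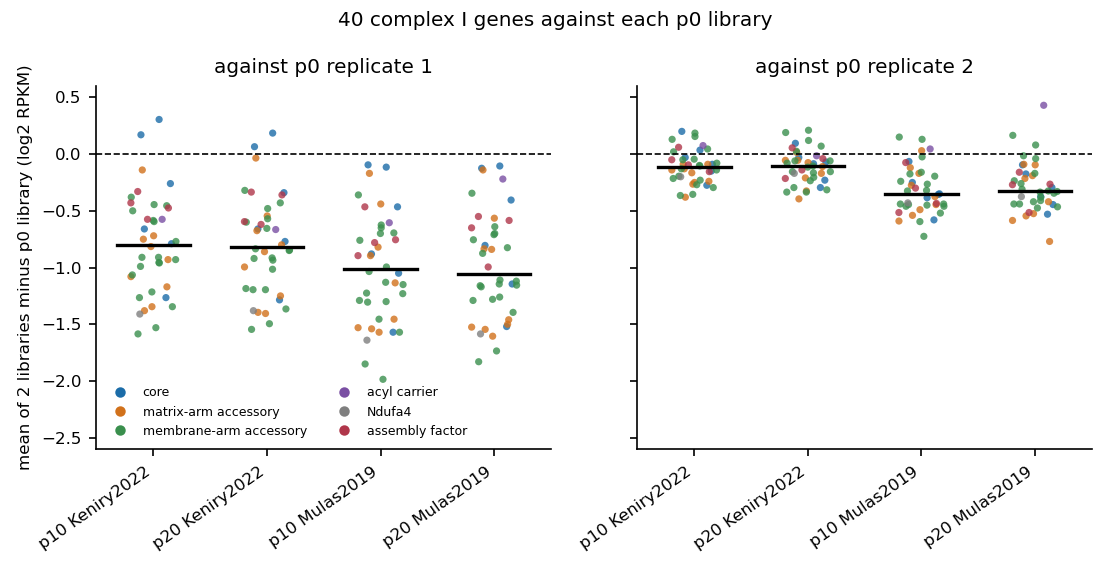
Each complex I gene as the mean of the 2 libraries of a group minus 1 p0 library (y axis, log2 RPKM; x axis, group; left panel, p0 replicate 1; right panel, p0 replicate 2), coloured by role, with black lines at the median. Against replicate 2 the medians are -0.12 and -0.11 for Keniry2022 and -0.35 and -0.33 for Mulas2019.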

How the data were processed

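Per the study's methods, RNA was made into TruSeq libraries and sequenced as single-end reads, trimmed with trim_galore and aligned to mm10, with HISAT2 in the methods and TopHat2 2.0.12 in the submitters' processing notes. The authors quantified annotated features in SeqMonk and deposited log2 values. The table is named as logCPM, but its values were read as log2 RPKM with 0 reads entered as 0.9. Multiplying RPKM by a recovered exon length and library total returned whole reads (tolerance 0.1) for 100% of the values. The length of 15662 of the 25965 features came from a search for whole reads, so for these the 100% is no independent check. The recovered length was within 5% of the annotated length for 22 of the 40 genes. How reads from near-identical copies and strand were handled is not given in the sources used here, so members with processed copies elsewhere or with opposite-strand overlaps are uncertain to that extent.

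Values were analysed as deposited with limma 3.58.1 (trended variance) in R 4.3.3, features with log2 above 0 in at least 50% of libraries. The pooled fit used 8 libraries, and the other comparisons used a 5-group fit of 10. Neither had a term for the line. Alternatives were a replicate block, library weights, quantile normalisation, median centring, other filters, length and GC corrections, voom and leaving out each library. The scripts were tested on simulated data. The table's features were matched by name and position to GENCODE M21 (22631 of 25965).

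The 2 replicates are independent cell lines per the study's methods, and same-numbered libraries of different groups were checked for shared deviations: the correlation was 0.171 to 0.63 for pairs without p20 Keniry2022 and -0.118 to -0.698 for pairs with it. The genes, roles and gene lists were chosen with earlier results of these data known. The genes named singly were core subunits, the 4 largest pooled differences in each accessory class, the assembly factors, Ndufab1, Ndufa4, the X-linked genes, those with exon overlap and the 3 largest differences from p0 in each comparison. Genes named for the gap between the p0 libraries were chosen after their values were seen. Ndufb4 and Ndufaf3 had the fewest reads. Other complex I genes, such as Ndufb1 and Ndufaf5 to Ndufaf8, are not analysed here, and 1 gene that matched the naming rule stayed in every fit but is not reported here.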

Additional observations from a re-analysis of the deposited data

Results flagged for a closer look

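In 4 of the 80 groups of 4 libraries examined (each gene under each method), 1 library stood apart by Dixon's ratio of its gap to the range, above its 95% critical value. Chance flags about 1 in 20 groups. All 4 were Mulas2019 libraries.

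Replicate 1 of p20 Mulas2019 stood above the others for Ndufs3 (3.04 against 2.91 to 2.92, ratio 0.895). Replicate 2 of p20 Mulas2019 stood above the others for Ndufb5 (5.69 against 5.37 to 5.41, ratio 0.862) and for Ndufc1 (4.48 against 4.16 to 4.21, ratio 0.845). In p10 Mulas2019 replicate 1, Ndufs5 was high (3.86 against 3.59 to 3.62, ratio 0.897). Without that library the call for Ndufs5 held, and without p20 Mulas2019 replicate 1 the call for Ndufs3 also held.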

How the results depend on the processing

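For the pooled comparison, the 28 calls became 24 to 29 when a library was left out, 26 with the replicate block and 27 with the block after exchanging the p20 Keniry2022 numbers. They were 22 after quantile normalisation (18 higher, 4 lower) and 23 after the exon length correction. The length and GC correction gave 20, a model of all 10 libraries 2 and voom 24 (23 higher, 1 lower). Over all features, 6000 calls became 5361, 5555, 4950, 2225 and 6044 in these fits, in that order. They became 5049 to 5659 when a library was left out, and 5749 and 5780 with the blocks. The length and GC correction and the exchanged block were chosen after seeing the data. Ndufs1 and Ndufv1 were called in all 20 alternatives, and 14 of the 28 in all but the 10-library model. Leaving out a library ended the call of Ndufs3 (6 of 8 libraries), Ndufb11 (6), Ndufa12 (5), Ndufa1 (4) and Ndufaf1 (3).

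Among genes not called, direction turned for Ndufa10 (0.01 after median centring, and -0.02 to 0.02 when a library was left out), Ndufa7 (0.00 after median centring, and -0.04 to 0.01 when a library was left out), Ndufa8 (-0.01), Ndufa9 (-0.06) and Ndufb8 (0.00) after quantile normalisation, Ndufa9 (0.00) after the length correction, and Ndufc1 (-0.08) and Ndufa9 (-0.04) after the length and GC correction. That correction also turned the called genes Ndufa4 (0.22 to 0.00) and Ndufs4 (0.16 to -0.03). Of the genes not called in the main fit, Ndufa7, Ndufa10 and Ndufa13 were each called lower in 1 of 20 alternatives. Ndufaf3 was called higher in 4 of 20, Ndufb2 in 3, and Ndufa3, Ndufa8 and Ndufb8 in 1 each.

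At p10 the 1 call became 0 with the replicate block, as labelled or exchanged, 27 with library weights, a different gene, Ndufv3 (lower), with quantile normalisation, 2 after the length correction and 4 after the length and GC correction, and 0 to 27 when a library was left out. At p20 the 0 calls became 17 with library weights, 1 after either correction, and 0 to 19 without a library. In the cultures matched in days they became 20 with weights and 0 to 23 without a library. Against p0, the 26 calls of p10 Mulas2019 became 17 without a filter, 0 with weights, 16 after either correction and 0 to 38 without a library. The 20 of p20 Mulas2019 became 12 without a filter, 0 with weights and 0 to 37 without a library. For Keniry2022 the ranges were 0 to 40 at p10 and 0 to 38 at p20. Comparisons between passages and their difference stayed at 0 when a library was left out. The replicate block changed no other call count by over 1.5 times. Of 11561 features in the main fit, 986 were called at p10. These became 714 and 778 with the blocks, 5880 with weights and 1139 with quantile normalisation. They became 1808 and 1817 after the length and the length and GC corrections. At p20, 249 became 4079 with weights and 773 and 759 after these corrections. In the cultures matched in days, 743 became 4623 with weights. For p10 Mulas2019 against p0, 3816 features became 3441 without a filter, 0 with weights and 3565 and 3057 after the corrections. For p20 Mulas2019 against p0, 3386 became 2905 without a filter and 0 with weights. Wherever leaving out a library raised a count in these comparisons, that library was from p0, and the count over all features rose too. Such a fit leaves 1 library at p0. Without p0 replicate 2, the Keniry2022 median difference from p0 was -0.8 at p10 and -0.82 at p20. It was -0.49 and -0.44 in the main fit. The cause of these shifts in counts was not tested. Ndufb4, with 70 to 283 reads, and Ndufaf3, with 203 to 436, had the fewest reads.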

Other observations

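The nuclear regulators of respiratory genes, the transcription factors and coactivators that act on subunit promoters and on mitochondrial transcription, were called in both directions. Of 14 tested, 3 were called higher under Keniry2022, 2 lower and 9 were not called, with a median difference of 0.02, against 25.9% of all tested features called higher and 25.5% lower. Tfb2m, a mitochondrial transcription factor, was higher by 0.59 (1.61 ± 0.037 against 1.02 ± 0.169, SD, n = 4 and 4, adjusted p = 0.000529). Tfam, which packages mitochondrial DNA, was higher by 0.13 (adjusted p = 0.0272) and Yy1 by 0.12 (adjusted p = 0.00777). Creb1 was lower by -0.21 (adjusted p = 0.033) and Esrra, an oestrogen-related receptor, by -0.15 (adjusted p = 0.0496). Nrf1 (0.14, adjusted p = 0.055) and Gabpa (0.00, adjusted p = 0.939) were not called, and the coactivator gene Ppargc1a had 0 to 1 read in every library.

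Genes for building iron-sulphur clusters, the cofactors of the matrix arm, gave 5 called higher, 1 lower and 6 not called of 12, with a median of 0.16. The scaffold Iscu (0.36, adjusted p = 0.00289), the carrier Nfu1 (0.36, adjusted p = 0.000162), the ferredoxin Fdx1l (0.30, adjusted p = 0.000967), Lyrm4 (0.25, adjusted p = 0.0361) and Glrx5 (0.15, adjusted p = 0.0325) were higher, and the cochaperone Hscb was lower (-0.18, adjusted p = 0.0457). Of 12 genes of the outer membrane and of mitochondrial mass, 6 were called higher and 0 lower, with a median of 0.11. Import receptors led, with Tomm22 at 0.35 (adjusted p = 0.000141), Tomm70a at 0.28 (adjusted p = 0.000172) and Tomm20 at 0.26 (adjusted p = 0.000967). Citrate synthase, Cs, a common marker of mitochondrial mass, was not called (-0.08, adjusted p = 0.14). These lists were chosen with earlier results of the data known, and 25.9% of all tested features were called higher.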
